A study of Mus musculus with 2 samples.

Results

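Prostaglandins are lipid signals that cells make from arachidonic acid, and 9 mouse genes of their synthesis, sensing and breakdown were followed here through the cells of fracture callus, the repair tissue that bridges a broken bone. The genes were Pla2g4a, Ptgs1, Ptgs2, Ptges, Ptgis, Hpgds, Ptger2, Ptger4 and Hpgd. They were taken by symbol from the 32285 genes of the count matrices. The set was selected on measured values, namely its levels in marker-defined cell classes and in chondrocytes ordered by Col10a1, so the levels below are a description and carry no test.

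The data were 2 single-cell RNA-seq libraries, called MGJ and MGJ2, of callus from a femoral fracture model in wild-type mice, captured with 10x Genomics 3′ chemistry (version 3). The mice were males of the C57BL/6J strain, aged 12 weeks per the study's methods. The design covered calluses taken 10 days and 20 days after fracture, with 5 mice at each time, but the labels tie neither library to a day or to a mouse, so the libraries are set side by side and never contrasted with each other. A callus library holds cartilage, young bone, vessels, marrow and blood cells together. In single cells each value is a sum of UMIs (unique molecular identifiers, 1 per captured RNA molecule) over all cells of a class, given as CPM (the class's UMIs of the gene scaled to 1000000 UMIs of that class) with an exact Poisson 95% interval that covers counting error only. These 3′ counts were not scaled by gene length, since 1 molecule gives 1 count near its 3′ end.

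In the prostaglandin pathway, cytosolic phospholipase A2 (Pla2g4a) frees arachidonic acid from membranes. The cyclooxygenases COX-1 (Ptgs1) and COX-2 (Ptgs2) turn it into prostaglandin H2, and terminal synthases shape that into prostaglandin E2 (Ptges), prostacyclin (Ptgis) or prostaglandin D2 (Hpgds). Prostaglandin E2 is read by receptors that include EP2 (Ptger2) and EP4 (Ptger4), and 15-hydroxyprostaglandin dehydrogenase (Hpgd) starts its breakdown. In bone repair, COX-2 and prostaglandin E2 are known for their part in the formation of cartilage and bone after fracture.

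The promoter stretches of 4 members are shown because the results turn on these genes: Ptgs2 and Ptges had profiles that resembled each other across cell classes, Ptgs1 is the other cyclooxygenase, and Hpgd was higher in cells with more Col10a1. They come from RefSeq on GRCm38.p6, read 5′ to 3′ on the gene's own strand, from 250 bases before the annotated start to 50 bases after it. Capitals mark matches, on either strand, to the TATA box written TATAAA, to the core of the cyclic AMP response element written ACGTCA, to the E-box written CACGTG and to the GC box written GGGCGG. RefSeq promoters were found for 8 of the 9 members, Ptgis being the member with no entry.
Ptgs2: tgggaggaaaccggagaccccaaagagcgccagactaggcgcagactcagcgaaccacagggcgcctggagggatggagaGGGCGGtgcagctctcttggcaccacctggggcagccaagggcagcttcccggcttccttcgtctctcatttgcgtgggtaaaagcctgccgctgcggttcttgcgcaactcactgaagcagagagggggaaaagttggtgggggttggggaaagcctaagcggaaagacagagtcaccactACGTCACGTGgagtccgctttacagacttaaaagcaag
Ptges: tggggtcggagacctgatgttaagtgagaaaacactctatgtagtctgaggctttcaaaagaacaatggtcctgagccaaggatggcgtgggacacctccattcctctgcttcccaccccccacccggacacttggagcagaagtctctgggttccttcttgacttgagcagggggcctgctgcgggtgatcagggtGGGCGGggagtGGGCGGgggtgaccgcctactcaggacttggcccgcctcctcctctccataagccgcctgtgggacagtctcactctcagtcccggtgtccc
Ptgs1: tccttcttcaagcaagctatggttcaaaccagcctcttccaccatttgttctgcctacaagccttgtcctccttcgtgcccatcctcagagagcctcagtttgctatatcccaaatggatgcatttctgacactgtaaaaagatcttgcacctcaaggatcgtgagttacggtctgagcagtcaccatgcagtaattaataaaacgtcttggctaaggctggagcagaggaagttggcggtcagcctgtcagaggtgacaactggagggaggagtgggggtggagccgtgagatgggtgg
Hpgd: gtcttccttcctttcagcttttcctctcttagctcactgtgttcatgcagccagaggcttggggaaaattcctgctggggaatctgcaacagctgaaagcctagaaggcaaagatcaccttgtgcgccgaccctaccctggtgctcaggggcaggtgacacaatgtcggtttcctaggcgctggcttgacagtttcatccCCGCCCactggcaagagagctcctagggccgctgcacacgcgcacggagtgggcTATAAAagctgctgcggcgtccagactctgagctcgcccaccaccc
The Ptgs2 stretch lies at chr1:150099781-150100080 on the plus strand. It holds 1 GC box that begins 170 bases before the start, and an ACGTCA and a CACGTG that share bases and lie just after the start. The Ptges stretch lies at chr2:30903248-30903547 on the minus strand, inside the longer gene body of the GENCODE annotation, and holds 2 GC boxes in the last 60 bases before the start. The Ptgs1 stretch at chr2:36230176-36230475, plus strand, holds none of these letter runs, and the Hpgd stretch at chr8:56294302-56294601, plus strand, holds a TATAAA just after its annotated start and 1 GC box read on the other strand. Of 32851 promoters of the same length, 13.6% held TATAAA, 7.51% ACGTCA, 7.15% CACGTG and 35.7% GGGCGG. Counts from 3′ ends do not show which start was used, and a match is a description of the letters alone.

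The members lie on 6 chromosomes in GENCODE M21 on GRCm38. Pla2g4a (chr1:149829618-149961290, minus strand) and Ptgs2 (chr1:150100031-150108227, plus strand) are neighbours that point away from each other, with 138740 bases between them. Chromosome 2 carries Ptges (chr2:30889471-30929863, minus), Ptgs1 (chr2:36230426-36252272, plus) and Ptgis (chr2:167191805-167240604, minus). The others are Hpgds (chr6:65117293-65144908, minus), Hpgd (chr8:56294585-56321043, plus), Ptger2 (chr14:44988195-45003820, plus) and Ptger4 (chr15:5206661-5244187, minus). Ptger4 overlaps Ttc33 on the opposite strand, which had 1432 UMIs in MGJ and 809 in MGJ2, and Ptger2 overlaps the antisense gene Gm17173, with 171 and 162 UMIs. The strand setting of the counting is not given in the sources used here, so reads of these pairs cannot be told apart with certainty.

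After barcodes with under 200 genes, over 20% mitochondrial UMIs or a doublet call were removed, 13320 cells with 131606692 UMIs remained in MGJ and 7584 cells with 58108099 UMIs in MGJ2. Chondrocyte-like cells, called from Col2a1, Acan and the other cartilage markers, numbered 2584 in MGJ and 139 in MGJ2, and their Col2a1 level was 54992 and 45422 CPM against 5107 and 203 in all other cells. Their median depth was 21080 and 28763 UMIs per cell, against 3680 and 4818 in the other cells. In MGJ 21.0% of cells stayed unnamed, most of them in a cluster led by Ccl3, against 0.448% in MGJ2. Classes with at least 50 cells numbered 18 in MGJ and 12 in MGJ2. In MGJ2 osteoblast-like, macrophage-like and endothelial-like cells were below that number, with 22, 30 and 49 cells, and every order of classes given for MGJ2 leaves them out. The myeloid progenitor-like cluster was led by Mpo, Elane, Ctsg, Prtn3 and Ms4a3. Its leading genes also included Siglech, Ccr9 and Cox6a2, markers of plasmacytoid dendritic cells, and Mcpt8, a marker of basophils. The levels given for that class may therefore mix several cell types. The libraries shared 19 barcode sequences, of which 13 were kept in both.

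Ptgs2 made up most of the pathway's RNA. The 9 genes together held 253276 UMIs in MGJ, or 1924 CPM, and 54021 in MGJ2, or 930 CPM. Ptgs2 gave 84.1% of these UMIs in MGJ and 79.9% in MGJ2. Each of the other members gave under 6% in either library, from 5.41% for Ptgis down to 0.233% for Hpgds in MGJ, and from 4.62% for Ptger2 down to 1.09% for Hpgds in MGJ2.

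**Figure D1:**
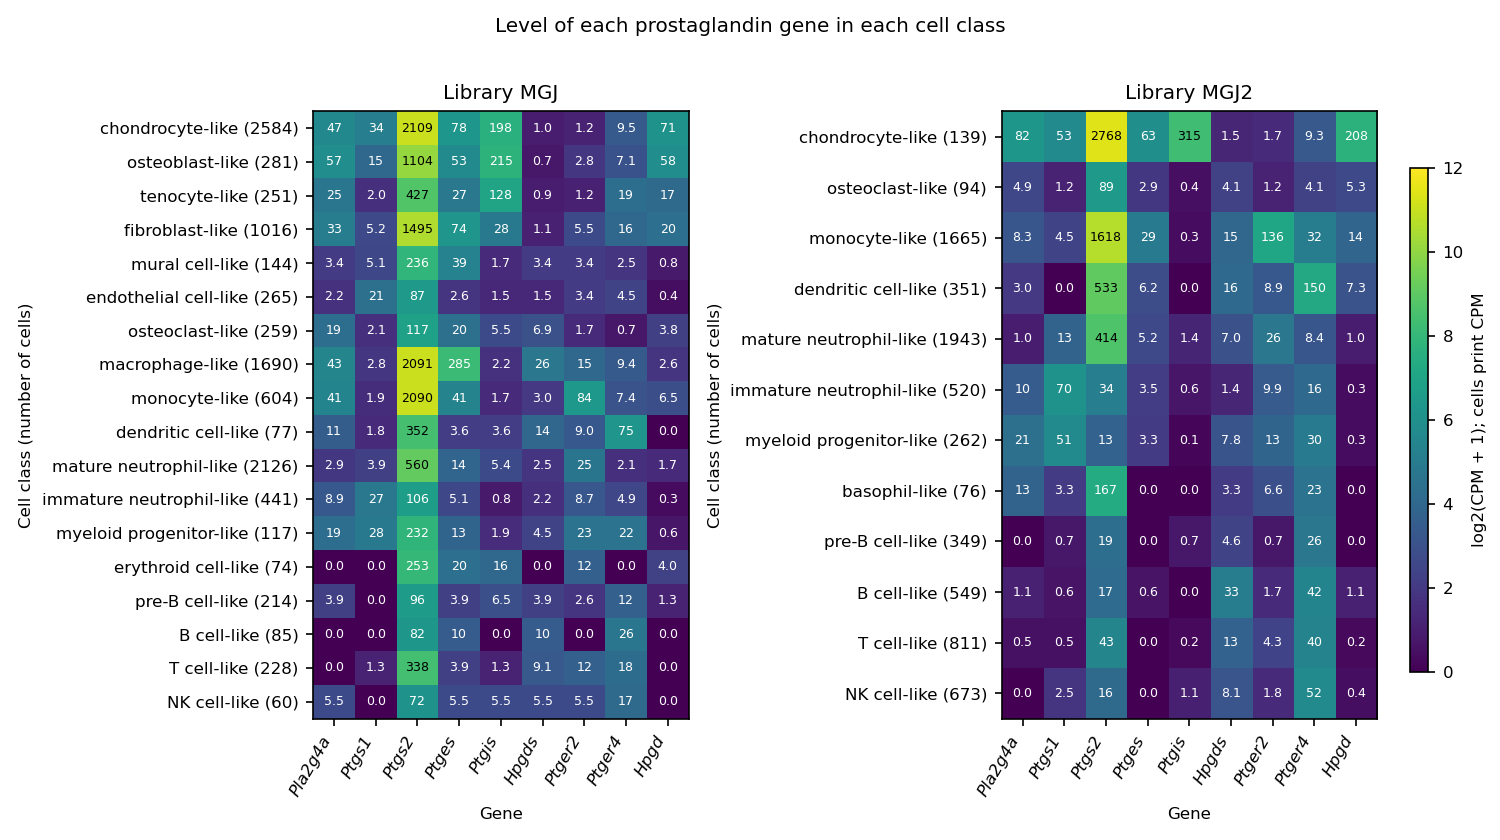
Level of each member in CPM (colour and printed number) in every named cell class with at least 50 cells, with library MGJ and library MGJ2 in separate panels. Ptgs2 was high in chondrocyte-like, monocyte-like and, in MGJ, macrophage-like cells, whereas Ptgis and Hpgd were concentrated in skeletal classes.

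Pla2g4a, the phospholipase that supplies arachidonic acid, was spread over skeletal and phagocytic cells in MGJ and stood highest in chondrocyte-like cells in MGJ2. In MGJ its level was 57.3 CPM (50.4 to 64.9) in osteoblast-like cells, 47.1 in chondrocyte-like, 42.6 in macrophage-like, 41.1 in monocyte-like and 33.1 in fibroblast-like cells. In MGJ2 it was 81.9 (73.4 to 91.2) in chondrocyte-like cells and 20.6 in myeloid progenitor-like cells, a ratio of 3.98 (3.26 to 4.89), while the 22 osteoblast-like cells had 54.5. The order below the leading classes was poorly resolved: the interval of the ratio held 1 for 11 of 15 neighbouring pairs in MGJ and 9 of 10 in MGJ2.

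Ptgs1, the cyclooxygenase that many cells carry constitutively, was found in cartilage and in young neutrophils. In MGJ it reached 34.1 CPM (32.6 to 35.7) in chondrocyte-like cells, 27.5 in myeloid progenitor-like cells and 27.0 in immature neutrophil-like cells, and the ratio of the leading pair, 1.24, had an interval of 0.916 to 1.72. In MGJ2 immature neutrophil-like cells were highest at 69.8 (63.4 to 76.6), above chondrocyte-like cells at 52.5 by a ratio of 1.33 (1.13 to 1.57), and the 49 endothelial-like cells had 55.5 from 24 UMIs. Mature neutrophil-like cells held far less than immature ones in both libraries. Their Ptgs1 level was 3.86 against 27.0 in MGJ, a ratio of 0.143 (0.0837 to 0.233) from 20 and 100 UMIs, and 13.2 against 69.8 in MGJ2, a ratio of 0.189 (0.144 to 0.245).

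Ptgs2, the inducible cyclooxygenase, was abundant in cartilage, in mononuclear phagocytes and, in MGJ, in part of the fibroblast-like cells. It stood at 2109 CPM in chondrocyte-like, 2091 in macrophage-like and 2090 in monocyte-like cells of MGJ, and these values did not separate beyond counting error (chondrocyte-like over macrophage-like 1.01, 0.996 to 1.02). Fibroblast-like cells followed at 1495 and osteoblast-like cells at 1104, and the lowest class, NK-like cells, had 71.6. The fibroblast-like level was uneven. A sub-cluster of 253 cells led by Clec3b and Tnxb had 2667 (2616 to 2719), above every class of MGJ, and the other fibroblast-like sub-clusters had 1028 to 1384. That sub-cluster was singled out after its values were seen. In MGJ2 chondrocyte-like cells had 2768, monocyte-like cells 1618 and dendritic-like cells 533, and chondrocyte-like exceeded monocyte-like cells by a ratio of 1.71 (1.67 to 1.75). The lowest level in MGJ2 was 12.8, in myeloid progenitor-like cells, and 3 of 11 neighbouring pairs could not be put in order.

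Neutrophils showed the reverse of their Ptgs1 pattern for Ptgs2. Mature neutrophil-like cells had 560 CPM against 106 in immature ones in MGJ, a ratio of 5.30 (4.76 to 5.90), and 414 against 34.2 in MGJ2, a ratio of 12.1 (10.5 to 14.0). Ptgs1 was thus lower and Ptgs2 higher in the mature than in the immature class of both libraries. In MGJ the unnamed cluster led by Ccl3, a chemokine of activated myeloid cells, had 966 CPM of Ptgs2 against 186 in mature neutrophil-like cells led by Retnlg, a ratio of 5.20 (4.59 to 5.90). In MGJ2 mature neutrophil-like cells led by Gm39321 had 574 against 87.0 in those led by Retnlg, a ratio of 6.59 (5.57 to 7.84). These clusters were singled out after their values were seen.

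Ptges, which makes prostaglandin E2 in step with COX-2, had its highest level outside cartilage in MGJ. There macrophage-like cells had 285 CPM (276 to 293), against 77.5 in chondrocyte-like, 74.5 in fibroblast-like and 52.7 in osteoblast-like cells, a ratio of 3.67 (3.52 to 3.83) over chondrocyte-like cells. A fibroblast-like sub-cluster of 250 cells, led by Draxin and Clstn2 and also picked after its values were seen, had 127 (117 to 137). The other fibroblast-like sub-clusters had 52.0 to 60.7. The macrophage-like level was uneven, since 10% of these cells carried 67.1% of the Ptges UMIs. The cluster led by Pf4 and Arg1 (913 cells) had 412 and the cluster led by Ly6i and Mmp19 (777 cells) had 93.1, a ratio of 4.42 (4.04 to 4.85), while Ptgs2 was 2038 and 2170 in the same clusters, which were set apart after their values were seen. In MGJ2, where macrophage-like cells were too few to list, chondrocyte-like cells had 62.6 (55.1 to 70.7) and monocyte-like cells 29.4, a ratio of 2.13 (1.82 to 2.48), and the 30 macrophage-like cells had 36.1 from 14 UMIs.

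Ptgis, the prostacyclin synthase, was a gene of skeletal and tendon cells. In MGJ its level was 215 CPM (201 to 229) in osteoblast-like cells, 198 (194 to 202) in chondrocyte-like cells, 128 in tenocyte-like cells and 27.8 in fibroblast-like cells. In MGJ2 it was 315 (298 to 333) in chondrocyte-like cells, and among classes of at least 50 cells the next, mature neutrophil-like cells, had 1.36, a ratio of 232 (112 to 578). The 22 osteoblast-like cells of MGJ2 stood above both, at 447 (393 to 507) from 246 UMIs. Free RNA from cartilage can add UMIs to other cells. Scaled from each class's Col2a1, a level of 36.5 of Ptgis would be reached in the osteoblast-like cells of MGJ if all their Col2a1 came from free chondrocyte RNA, against the 215 measured.

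Hpgds, which makes prostaglandin D2, stayed low and lay in immune classes. In MGJ macrophage-like cells had 26.3 CPM (23.8 to 29.1), with dendritic-like cells next at 14.4, and the interval of the ratio held 1 for all 17 neighbouring pairs. In MGJ2 B-like cells had 33.4 (25.5 to 42.9), dendritic-like cells 16.1 and monocyte-like cells 14.6, and the 30 macrophage-like cells had 79.9 from 31 UMIs. Chondrocyte-like cells of MGJ2 held 6 Hpgds UMIs in all.

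The 2 receptor genes among the members had their highest class levels in monocyte-like and in dendritic-like cells. Ptger2 (EP2) was highest in monocyte-like cells, at 84.4 CPM (76.3 to 93.3) in MGJ and 136 (131 to 142) in MGJ2, ahead of mature neutrophil-like cells at 24.7 and 26.2 by ratios of 3.42 (2.79 to 4.204) and 5.20 (4.37 to 6.24). Ptger4 (EP4) was highest in dendritic-like cells, at 75.5 (54.4 to 102) in MGJ and 150 (138 to 163) in MGJ2. The next classes for Ptger4 were B-like cells at 25.6 in MGJ and NK-like, B-like and T-like cells at 51.9, 41.7 and 39.6 in MGJ2. In MGJ the ratio of dendritic-like to B-like cells was 2.95 (1.17 to 9.56), and 16 of 17 neighbouring pairs could not be put in order. Monocyte-like cells held 85.2% of all Ptger2 UMIs of MGJ2 and 32.2% of those of MGJ. For Ptger4, cells other than chondrocyte-like held 60.9% of the UMIs in MGJ and 98.1% in MGJ2, and chondrocyte-like cells held the rest. Within MGJ2, a monocyte-like cluster of 988 cells had 166 CPM of Ptger2 and one of 616 cells had 81.7, a ratio of 2.03, with Ptgs2 at 1696 and 1697, and these clusters too were chosen after seeing values. Ptger2 was itself a leading gene of the 988-cell cluster and was used to pick it, so nothing is read from its higher level there.

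Hpgd, the enzyme that inactivates prostaglandins, was a gene of cartilage and young bone in both libraries, with chondrocyte-like cells first among the classes of at least 50 cells. In MGJ its level was 70.8 CPM (68.6 to 73.1) there, 57.8 in osteoblast-like, 20.2 in fibroblast-like and 16.9 in tenocyte-like cells. In MGJ2 it was 208 (194 to 222) in chondrocyte-like and 14.3 in monocyte-like cells, a ratio of 14.5 (12.5 to 16.9), but the 22 osteoblast-like cells were higher than both at 353 (305 to 406) from 194 UMIs. The RNA was held by few cells: 10% of the chondrocyte-like cells carried 78.2% of the Hpgd UMIs in MGJ and 48.8% in MGJ2, against 31.7% and 33.3% for Ptgs2. Among osteoblast-like cells, 10% carried 90.1% of the Hpgd UMIs in MGJ and 72.7% in MGJ2. Only 10 of the 22 osteoblast-like cells of MGJ2 had any Hpgd UMI, so that level came from few cells.

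Cells of every class were then thinned to 2000 UMIs so that shares of cells with a UMI could be read at 1 depth. In chondrocyte-like cells of MGJ the share was 79.4% for Ptgs2 (77.7 to 80.9), 25.5% for Ptgis, 11.97% for Ptges, 8.82% for Hpgd, 8.62% for Pla2g4a and 6.38% for Ptgs1. In MGJ2 it was 74.8% for Ptgs2 (66.6 to 81.9), 40.0% for Ptgis, 22.2% for Hpgd, 17.8% for Pla2g4a, 8.15% for Ptges and 6.67% for Ptgs1. The unthinned shares were 94.5% and 89.2% for Ptgs2 and 26.9% and 60.4% for Hpgd. Pre-B-like cells, which should lack these enzymes, gave thinned shares of 17.9% in MGJ and 2.35% in MGJ2 for Ptgs2, 0.943% and 0.294% for Ptgis, and 0 for Hpgd, Ptges, Pla2g4a and Ptgs1, of 106 and 340 cells deep enough to thin, with median depths of 1997 and 4168 UMIs before thinning. Both Ptgs2 and Ptges were seen in 1201 of 2584 chondrocyte-like cells of MGJ and 48 of 139 of MGJ2, without thinning. In MGJ the cells with Ptgs2 were also deeper, at a median of 21610 UMIs against 10902 in the cells without it, and the part of depth in the pairing was not tested.

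**Figure D2:**
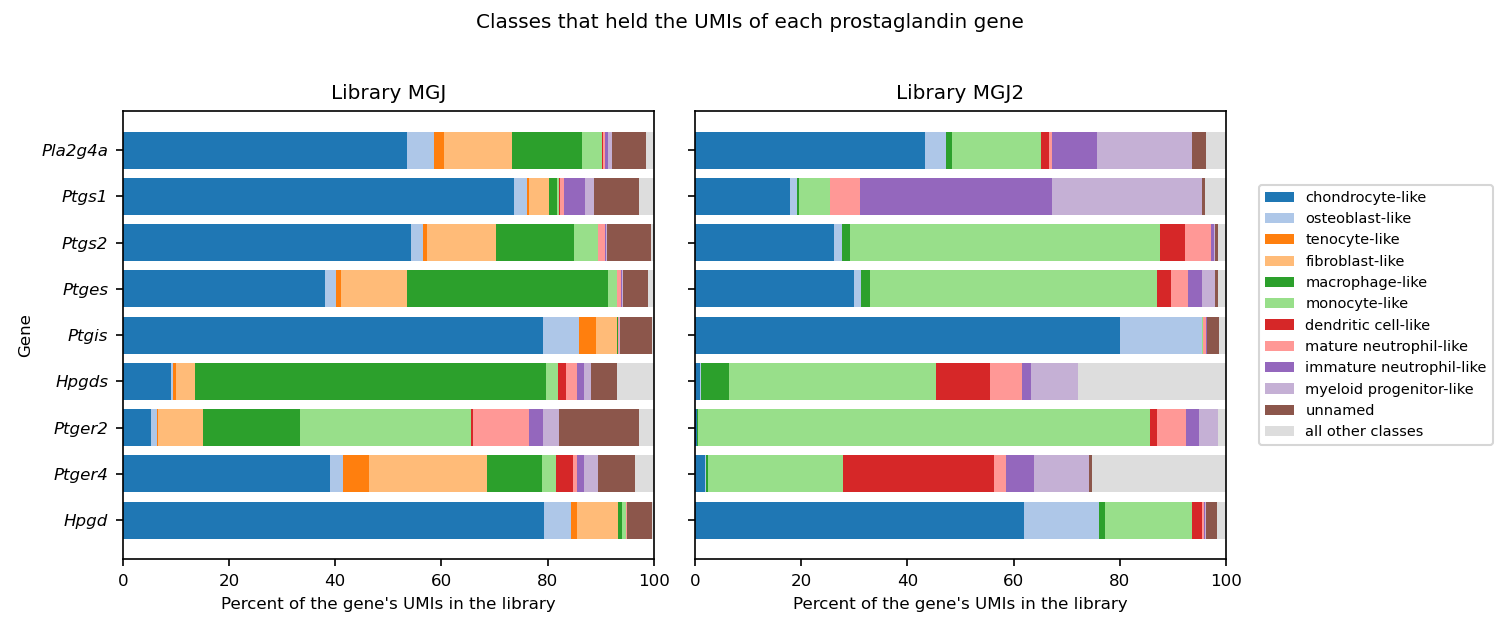
Percent of each member's UMIs that came from each cell class, as stacked bars from 0 to 100, for library MGJ and library MGJ2. Chondrocyte-like cells held 79.2% of the Hpgd and 79.2% of the Ptgis UMIs in MGJ, while monocyte-like cells held 58.5% of the Ptgs2 UMIs in MGJ2.

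The number of cells and the level per cell together set where the RNA sat. In MGJ chondrocyte-like cells held 54.3% of the Ptgs2 UMIs, 73.6% of Ptgs1 and 53.5% of Pla2g4a, and the Ptges UMIs were divided between chondrocyte-like cells with 38.1% and macrophage-like cells with 37.8%. In MGJ2, with fewer chondrocyte-like cells, these held 26.1% of the Ptgs2 and 17.8% of the Ptgs1 UMIs, and 62.0% of the Hpgd and 80.1% of the Ptgis UMIs. Monocyte-like cells of MGJ2 held 54.0% of its Ptges UMIs.

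Chondrocyte-like cells were next set against all other cells of the same library, to see which steps of the pathway were higher in cartilage. In MGJ 3 of the 9 members were at least 2-fold higher, where 12.9% of the 14737 genes with 50 or more UMIs passed the same fold. They were Hpgd at a ratio of 5.35 (4.99 to 5.74), Ptgis at 5.32 (5.10 to 5.54) and Ptgs1 at 3.90 (3.57 to 4.27). Hpgds at 0.138 (0.102 to 0.184) and Ptger2 at 0.0794 were at least 2-fold lower, 2 of 9 members, where 25.5% of genes were. The other ratios were 1.66 for Ptgs2, 1.61 for Pla2g4a, 0.899 for Ptger4 (0.804 to 1.005) and 0.863 for Ptges. The other cells of MGJ include 278 cells set aside from the cartilage clusters, whose leading genes were of neutrophils or fibroblasts but whose Col2a1 level was 49799 CPM and Ptgs2 level 2076. Against the named classes alone, without any of the 2800 unnamed cells of MGJ, to which these belong, the ratios were 5.96 for Hpgd, 6.49 for Ptgis, 4.97 for Ptgs1 and 1.74 for Ptgs2. The median was 1.61 over the members and 0.875 over all genes tested. Since these members were chosen with their levels in these cells known, nothing is read from the counts.

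In MGJ2 the synthesis and breakdown genes were higher in cartilage than in all other cells, and the receptors and Hpgds lower. The 7445 other cells of MGJ2 were mostly blood and marrow cells, with 22 osteoblast-like, 3 fibroblast-like and 2 tenocyte-like cells. The ratios thus set cartilage mainly against blood and marrow cells. The 22 osteoblast-like cells stood above chondrocyte-like cells for Ptgis (447 against 315 CPM) and Hpgd (353 against 208). At least 2-fold higher were 6 of 9 members, where 20.0% of 13067 genes were: Ptgis at a ratio of 53.4 (47.2 to 60.6), Hpgd at 21.6 (19.3 to 24.1), Pla2g4a at 10.2 (8.78 to 11.7), Ptges at 5.68 (4.89 to 6.59), Ptgs2 at 4.69 (4.59 to 4.79) and Ptgs1 at 2.87 (2.47 to 3.33). At least 2-fold lower were 3 of 9, where 32.8% of genes were: Ptger4 at 0.263 (0.185 to 0.362), Hpgds at 0.137 (0.0500 to 0.300) from 6 UMIs, and Ptger2 at 0.0373 from 7 UMIs. The median was 4.69 over the members and 0.780 over all genes. When each cell was instead named by its own highest marker score, the Hpgd ratio turned to 0.507 in MGJ and 0.581 in MGJ2. That naming placed 79.5% and 92.9% of the cells with high Col10a1 among osteoblasts and kept 69.6% and 47.3% of those with low Col10a1 as chondrocytes. Its lists held none for hypertrophic chondrocytes, while the osteoblast list held Ibsp, at 10730 and 10818 CPM in the cells with high Col10a1. The part of the lists in these names was not tested.

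**Figure D3:**
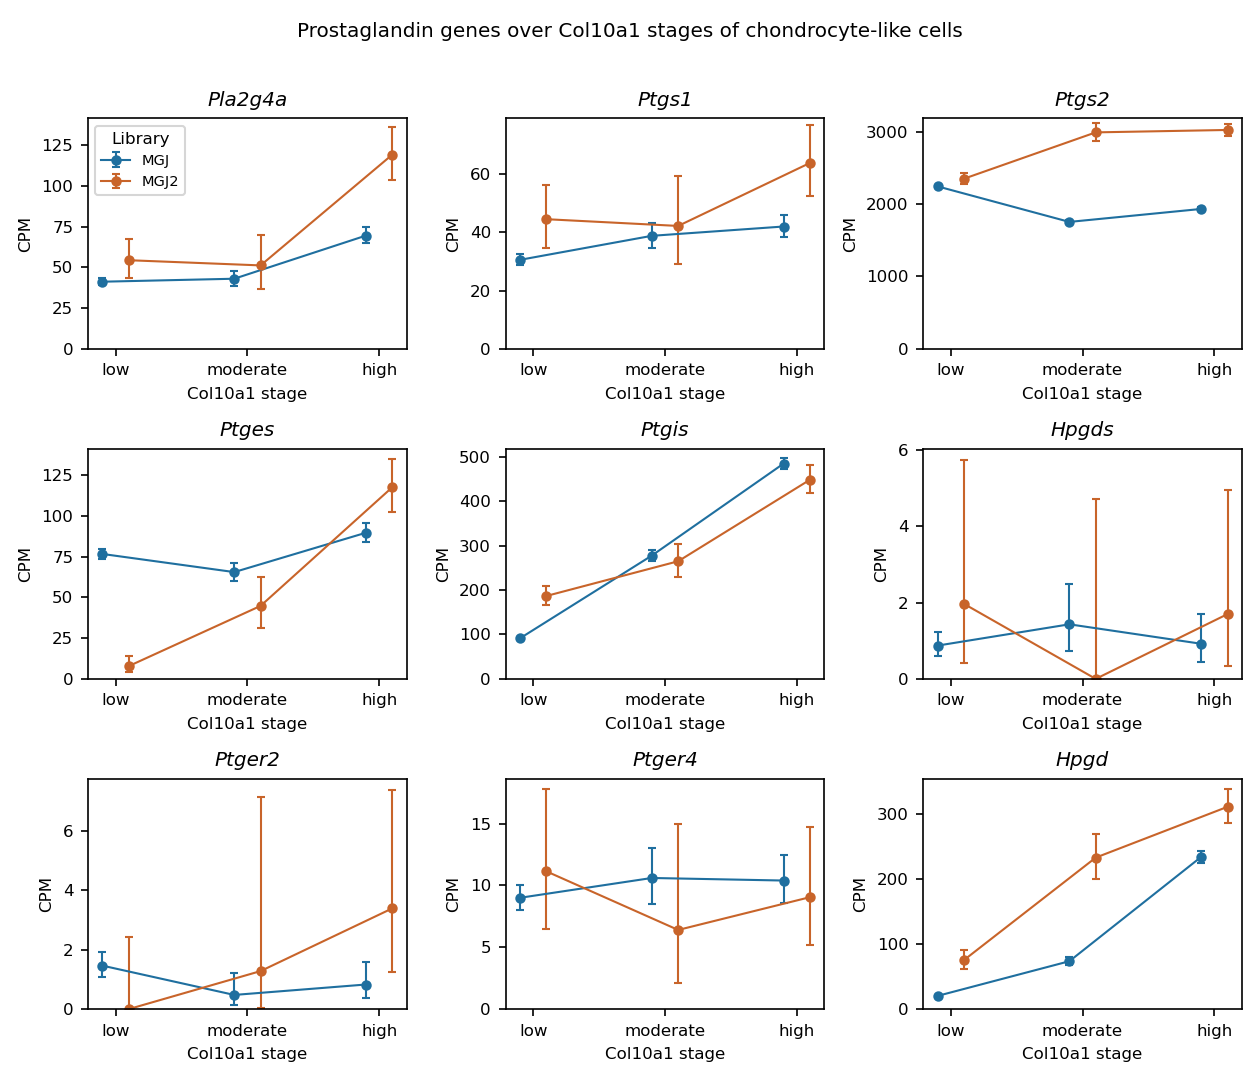
Level of each member (CPM, 95% Poisson intervals as bars, each axis from 0) in chondrocyte-like cells with low, moderate and high Col10a1, with both libraries drawn in each panel. Hpgd and Ptgis were higher in high than in low cells of both libraries, at 234 and 485 in high cells of MGJ and 311 and 448 in those of MGJ2.

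Col10a1, the collagen of hypertrophic cartilage, was used to order the chondrocyte-like cells. Cells under 1000 CPM of Col10a1 were called low, those from 1000 to 10000 moderate and those over 10000 high, which gave 1702, 359 and 523 cells in MGJ and 55, 28 and 56 in MGJ2. These are ranges of a continuous value, and 125 and 162 cells of MGJ and 11 and 9 of MGJ2 lay within 1.5-fold of the lower and the upper limit.

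Among the members, the ratio of high over low was largest for Hpgd in MGJ and for Ptges in MGJ2. In MGJ Hpgd was 20.3 CPM (18.8 to 21.8) in low, 73.6 in moderate and 234 (225 to 243) in high cells, a ratio of high over low of 11.5 (10.6 to 12.6). The thinned share of cells with an Hpgd UMI was 3.15% (2.37 to 4.10) in low and 29.5% (25.5 to 33.6) in high cells. In MGJ2 Hpgd was 75.3, 233 and 311, a ratio of 4.13 (3.37 to 5.09). That ratio rested on few cells and was 1.73 with doublet calls kept and 1.68 when every cell was weighted equally.

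Ptgis followed the same order. Its level was 91.4, 278 and 485 CPM in low, moderate and high cells of MGJ, a ratio of 5.30 (5.08 to 5.54), and 187, 265 and 448 in MGJ2, a ratio of 2.40 (2.10 to 2.76). Its thinned share was 13.5% in low and 60.7% in high cells of MGJ, and 24.5% and 50% in MGJ2. The prostacyclin synthase was thus at least 2-fold higher in high than in low cells of each library, as was the dehydrogenase but for the settings of MGJ2 just given.

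The upstream enzymes had lower ratios than Hpgd and Ptgis in MGJ, while in MGJ2 those of Pla2g4a and Ptgis overlapped in their intervals. Pla2g4a was 41.2, 43.0 and 69.5 CPM in MGJ, a ratio of 1.69, and 54.4, 51.2 and 119 in MGJ2, a ratio of 2.19 (1.69 to 2.86) that came to 1.97 with limits of 500 and 5000. Ptgs1 was 30.6, 38.8 and 42.0 in MGJ, a ratio of 1.38, and its ratio in MGJ2 was 1.43. Ptgs2 was abundant at every stage, at 2246, 1754 and 1934 in MGJ, a ratio of 0.861, and at 2352, 2993 and 3027 in MGJ2, a ratio of 1.29.

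Ptges is given for each library on its own. In MGJ it was 76.6, 65.5 and 89.7 CPM, a ratio of 1.17. In MGJ2 it was 7.86 (4.06 to 13.7), 44.8 and 118 (102 to 135), a ratio of 14.96 (8.38 to 29.4) from 12 and 208 UMIs. Whether the courses differ between the libraries could not be tested. Ptger4 had a ratio of 1.15 in MGJ, Ptger2 0.566 (0.245 to 1.16) from 52 UMIs in low and 9 in high cells, and Hpgds, with 31 and 10 UMIs, was too low to be compared.

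By the same size rule 2 of the 8 members with enough UMIs were at least 2-fold higher in high than in low cells of MGJ, where 8.20% of 12062 genes were, and 0 of 8 lower, where 10.1% were. In MGJ2 4 of 6 were higher, where 7.66% of 5872 genes were, and 0 of 6 lower, where 9.20% were. The median ratio was 1.27 over the members and 0.976 over all genes in MGJ, and 2.30 and 0.9698 in MGJ2. Nothing is read from these counts either, as the members' levels by Col10a1 were known.

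Other markers moved with Col10a1. The summed level of 8 osteoblast markers was 1810, 6287 and 11554 CPM in low, moderate and high cells of MGJ, with 5 of 8 at least 2-fold higher in high cells, 1 lower and none at 0. In MGJ2 the sums were 6441, 11346 and 11971, with 3 of 8 higher and 1 lower. Most of the sum was Ibsp, bone sialoprotein, at 1460 and 10730 in low and high cells of MGJ. Ibsp was also on the list used to name hypertrophic sub-clusters, so the sum is not particular to osteoblasts. Bglap, osteocalcin, was 9.08 and 57.7, against 546 in osteoblast-like cells, and Col2a1 was 54750 in low and 48506 in high cells, against 10140 there. Phex, Dmp1 and Smpd3 were the others at least 2-fold higher in high cells of MGJ. Bglap2, a second osteocalcin gene, was 4.05 in low and 3.96 in high cells of MGJ, Sp7 25.4 and 27.6, and Ifitm5 4.98 and 1.29. In MGJ2 Bglap was 83.2 in low and 159 in high cells, but Bglap2 was 59.0 and 9.05 and Sp7 57.0 and 34.5. The sum of 9 mature neutrophil markers was 348 in low and 431 in high cells of MGJ, and that of 9 macrophage markers 18.9 and 27.3, with Cd163 at 0. In MGJ2, where Ptges had its largest ratio, the sum of 14 cartilage markers was 105756 in low and 60378 in high cells, with 8 of 14 at least 2-fold lower, and Col2a1 was 55280 and 32125. The neutrophil sum there was 186 and 274, with 6 of 9 at least 2-fold higher in high cells. These marker counts had no lower limit on UMIs. Of the 6, Clec4d was 12.4 and 44.1, while Csf3r, Cxcr2, Il1r2, Mmp8 and Trem1 reached at most 6.22 CPM in high cells. S100a8 at 70.8 and 93.9, S100a9 at 86.5 and 109 and Retnlg at 10.5 and 10.2 did not pass 2-fold. The macrophage sum in MGJ2 was 15.7 and 9.61, with 6 of 9 at 0 in high cells. Of 10 fibroblast markers, 6 were at least 2-fold lower in high cells of MGJ2, with sums of 5355 and 3740, and 3 in MGJ, with 5904 and 4010. The part of these marker levels in the levels of Hpgd, Ptgis and Ptges was not tested.

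**Figure D4:**
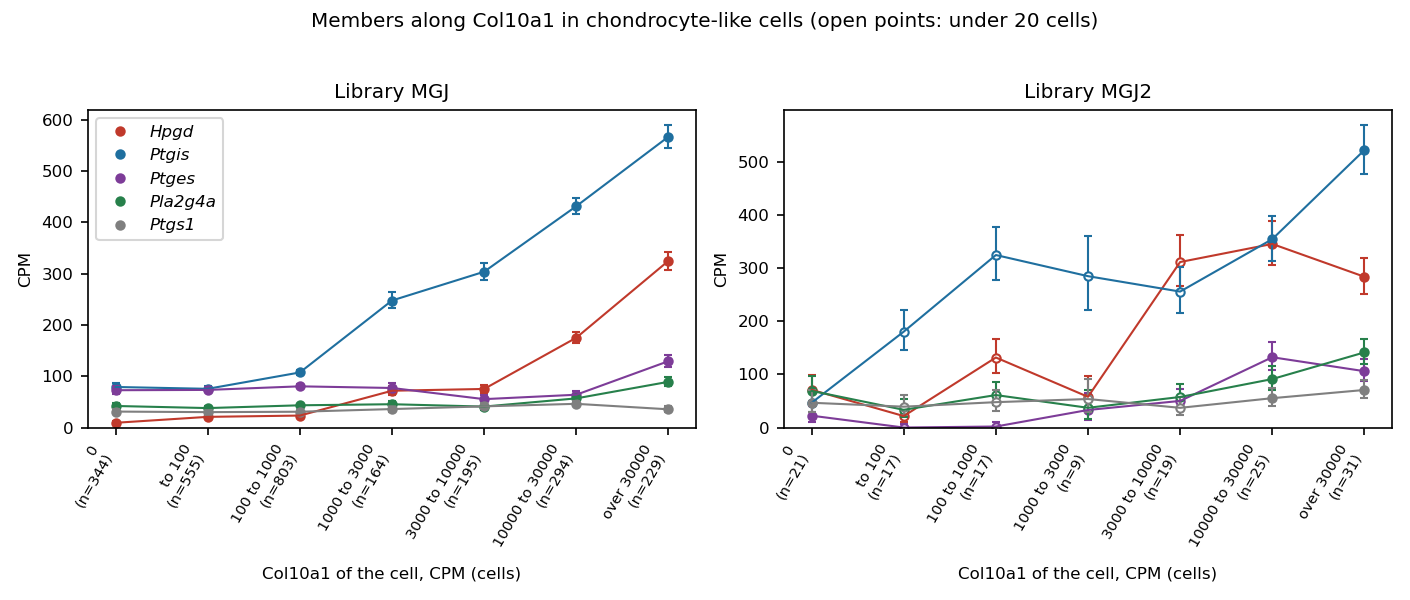
Level (CPM) of 5 members in chondrocyte-like cells sorted into finer ranges of Col10a1, with open points for ranges under 20 cells. In MGJ Hpgd went from 9.26 in cells with no Col10a1 UMI to 325 in cells over 30000 CPM of Col10a1, and Ptgis from 79.1 to 567.

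Finer ranges of Col10a1 showed a graded order in MGJ. Over 7 ranges Hpgd was 9.26, 20.8, 23.3, 71.8, 75.2, 175 and 325 CPM, higher in each range than in the one before, although neighbours such as 20.8 and 23.3 or 71.8 and 75.2 lay close together. The ranges were limited at 100, 1000, 3000, 10000 and 30000 CPM, with cells without a Col10a1 UMI as a range of their own. Ptgis was 79.1, 75.5, 107, 248, 304, 432 and 567. In MGJ2, where 4 of the 7 ranges held under 20 cells, the order was not graded. Hpgd was 71.0, 21.6, 132, 57.8, 312, 346 and 284 there, so the range over 30000 (252 to 319) was not the highest. The range below it had an interval of 306 to 389. Ptgis in MGJ2 was 46.6, 180, 325, 285, 256, 355 and 522.

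**Figure D5:**
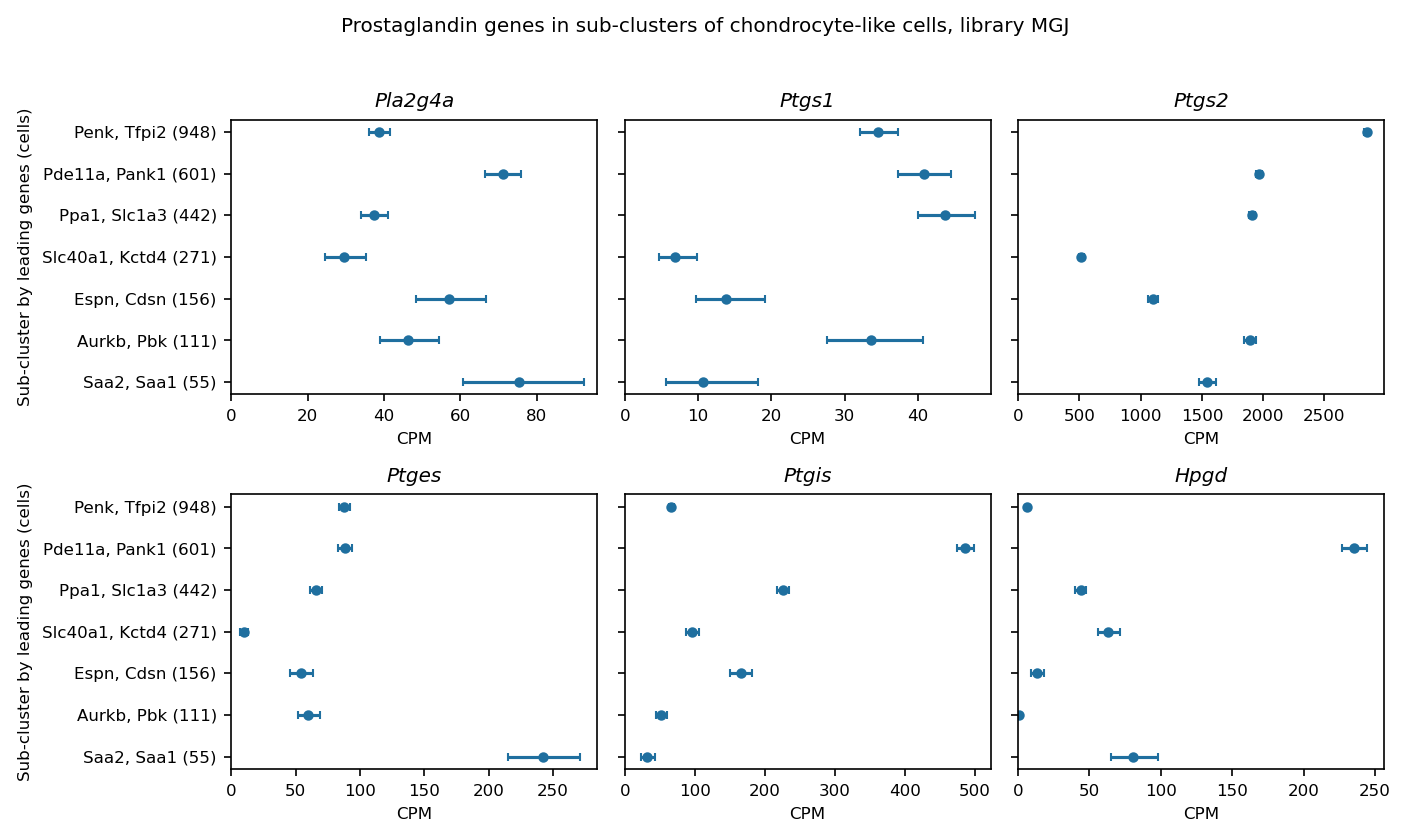
Level (CPM, 95% Poisson intervals as bars, each axis from 0) of 6 members in sub-clusters of the chondrocyte-like cells of library MGJ, named by their leading genes with cell numbers in brackets. Ptgs2 was highest in the Penk sub-cluster at 2844, Ptges in the Saa2 sub-cluster at 242, and Hpgd and Ptgis in the Pde11a sub-cluster.

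Sub-clusters within the cartilage of MGJ differed in Ptgis and Hpgd and, less evenly, in the upstream genes. They were made without the member genes, but were chosen for description after their values were seen. The sub-cluster led by Penk (proenkephalin), with 948 cells, had Ptgs2 at 2844 CPM against 1683 in the other chondrocyte-like cells, a ratio of 1.69 (1.67 to 1.71). It was lower in Hpgd, at 6.32 against 108, and in Ptgis, at 66.8 against 274. The sub-cluster led by Pde11a, which also had Col10a1 among its leading genes, held the highest Ptgis and Hpgd levels, at 486 (474 to 499) and 235 (227 to 244). Its upstream genes were not low, with Ptgs2 at 1967, Ptges at 88.4, Ptgs1 at 40.8 and Pla2g4a at 71.1, against 87.8, 34.6 and 38.7 for the last 3 in the Penk sub-cluster. Sub-clusters led by Slc40a1, an iron exporter, and by the mitotic genes Aurkb and Pbk stood low in parts of the pathway. In the former (271 cells) Ptgs2 was 517 against 2241 in the rest, a ratio of 0.231 (0.221 to 0.241), Ptges 9.72 against 83.2 and Ptgs1 6.87 against 36.4. In the latter (111 cells) Hpgd was seen as 1 UMI in all, and Ptgis was 52.2 against 207. A small sub-cluster of 55 cells, led by the acute-phase genes Saa2, Saa1 and Saa3, had Ptges at 242 against 73.8 in the other chondrocyte-like cells, a ratio of 3.28 (2.90 to 3.69), with Ptgs2 at 1542 against 2122.

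The other genes of the pathway were taken from a list of 36 eicosanoid genes, all of which were found. In chondrocyte-like against all other cells, 30 of them could be compared in MGJ, of which 2 were at least 2-fold higher and 14 lower, with a median ratio of 0.688. Over all genes tested in MGJ, 12.9% were higher and 25.5% lower. In MGJ2 28 could be compared, of which 6 were higher and 16 lower, with a median of 0.428, where 20.0% and 32.8% of all genes were. The 6 of 28 lay near the share over all genes, and nothing is read from these counts. The genes higher in MGJ were Pla2g5, a secreted phospholipase, and Alox12, a lipoxygenase. Those higher in MGJ2 were Mgll, Prxl2b, Cbr1, Ptger1, Slco2a1 and Alox12, among which Slco2a1 is the prostaglandin uptake carrier and Ptger1 the EP1 receptor. Ptger1 was low there, at 2.94 CPM in chondrocyte-like cells and 3.34 in B-like cells. Of the 7 leukotriene-branch genes compared, 5 were at least 2-fold lower in chondrocyte-like cells of each library, where 25.5% of all genes in MGJ and 32.8% in MGJ2 were. Their median ratio was 0.0330 in MGJ and 0.0437 in MGJ2, and Alox12 was highest in chondrocyte-like cells, at 23.9 and 23.8 CPM. By Col10a1, 22 genes could be compared in MGJ, where Cbr1, Ptgr1 and Alox12 were at least 2-fold higher in high cells and Mgll, Ptgfr and Slco2a1 lower, and 7 in MGJ2, where Zadh2 was higher and Mgll lower. Over all genes, 8.20% were higher and 10.1% lower in MGJ, and 7.66% and 9.20% in MGJ2.

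Genes of the list that reached 50 CPM in some class numbered 10 in each library. In MGJ the partner genes of prostaglandin synthesis and clearance peaked outside cartilage, with Ptges3 at 291 and the prostaglandin F synthase Akr1b3 at 125 in osteoclast-like cells, Slco2a1 at 160 and Mgll at 134 in endothelial-like cells, the prostacyclin receptor Ptgir at 52.6 in mural-like cells and Ptgr1 at 115 in monocyte-like cells. The platelet-activating factor hydrolase Pla2g7 peaked in macrophage-like cells at 547. Alox5ap at 1113, Ltb4r1 at 196 and Lta4h at 133, genes of leukotriene synthesis and sensing, peaked in immature neutrophil-like cells of MGJ. In MGJ2 Pla2g7 at 364 and the prostaglandin exporter Abcc4 at 64.4 peaked in monocyte-like cells, Ptges3 at 303 and Akr1b3 at 122 in osteoclast-like cells, and Ptgr1 at 90.9 in pre-B-like cells. Basophil-like cells of MGJ2 had the highest Alox5ap at 2020, Alox5 at 125 and the prostaglandin F receptor gene Ptgfr at 325.

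The genes whose class profiles were most like those of the members were ranked among 11498 genes, by the lower of the correlations of log2(CPM + 10) over the 18 classes of MGJ and the 12 of MGJ2. The classes of a library share its depth and free RNA, so these values describe likeness only. Ptgs2 was most like Smpdl3b (0.803), Ptges (0.7998) and Inhba (0.774), and Ptges was most like Inhba (0.846), Fam20c (0.822) and Ptgs2 (0.7998). Each of this enzyme pair was thus among the 3 closest genes of the other. Ptgis was most like the cartilage matrix gene Matn4 (0.969), Rbp4 (0.958) and Zim1 (0.957), and Hpgd was most like Gm41724 (0.951), Sdk2 (0.947) and Anxa8 (0.947). Pla2g4a was most like S100a1 (0.8397), Csgalnact2 (0.803) and C1rl (0.783), and Ptgs1 like Msrb2 (0.809), Mtus1 (0.806) and Smim5 (0.773). The receptors and Hpgds matched immune genes in part. Ptger4 was most like Map3k14 (0.802), Ccr7 (0.769) and Pde3b (0.747), Hpgds like Ly9 (0.732), H2-Aa (0.732) and Gm19967 (0.729), and Ptger2 like 3 predicted genes, Gm9733 (0.842), Gm36161 (0.830) and Gm21188 (0.827).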

How the data were processed

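The values are raw UMI counts in 2 cell-filtered matrices as deposited. The headers name Cell Ranger 4.0.0 as the counting software, and the submitters' processing notes name GRCm38 and Seurat. Doublets were called with Scrublet in scanpy 1.11.5, which marked 1.04% of barcodes in MGJ and 2.84% in MGJ2 where 10.8% and 6.24% were expected, and were removed. Both libraries were clustered together without the 9 members and the listed pathway genes (2000 variable genes, 30 components, 15 neighbours, Leiden resolution 1, sub-clusters 0.5), and clusters were named "X-like" from marker lists. Cartilage sub-clusters whose leading genes were of other cells (278 cells in MGJ, 3 in MGJ2) were set aside among the unnamed cells. Ratios carry exact conditional binomial 95% intervals and shares Clopper-Pearson intervals, for counting error only. With neither library in a group, no test, p-value or SD was computed. Gene members and lists were chosen with earlier results of these data known. Genes were named if they were members, pathway genes at 50 CPM or more in a class, the 3 most similar genes per member, markers or leading genes of clusters. Pathway genes past 2-fold were named as well, after their values were seen. Each library may pool several mice, which barcodes do not tell apart. The intervals were tested on simulated data drawn with counting error alone, so that test says nothing on spread between cells or mice.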

Additional observations from a re-analysis of the deposited data

Results flagged for a closer look

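Barcodes removed by the filters held UMIs of the 9 prostaglandin genes that the comparisons leave out. Their summed level was 1396.53 CPM (1358.7 to 1435.15) over the 975 barcodes removed from MGJ, against 1924 in the kept cells. In MGJ2 it was 840.96 CPM (808.583 to 874.301) over 425 removed barcodes, against 930 in the kept cells.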

How the results depend on the processing

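Over 32 ratios and their 316 alternative values, 307 stayed on the same side of 1, and of 192 alternative values for the 20 ratios past 2-fold, 185 stayed past it. Naming each cell by its own highest marker score, with no list for hypertrophic chondrocytes among those used, moved most. It put 79.5% of the high-Col10a1 cells of MGJ and 92.9% of those of MGJ2 among osteoblasts, and left 66 high cells in MGJ and 1 in MGJ2, so the values by Col10a1 of MGJ2 under it rest on a single cell. The ratio of chondrocyte-like to other cells then fell to 0.507 for Hpgd in MGJ and 0.581 in MGJ2, to 1.12 for Ptgis in MGJ and to 1.01 for Ptges in MGJ2, and the ratio of high to low Col10a1 for Pla2g4a in MGJ2 to 0. Under it 1 member was at least 2-fold higher in chondrocyte-like cells of MGJ in place of 3, and by Col10a1 in MGJ2 1 was higher in place of 4 and 2 lower in place of 0. By Col10a1 in MGJ, 1 member was at least 2-fold lower in place of 0 with doublet calls kept, with at most 10% mitochondrial UMIs, with every cell weighted equally, and with hypertrophic sub-clusters set against the rest. With equal weights, Pla2g4a passed 2-fold in chondrocyte-like cells of MGJ at 2.71. The cause of these other moves was not tested. No paired analysis was possible because neither library belongs to a group. Few UMIs limit Hpgds and Ptger2 by Col10a1, and the 139 chondrocyte-like cells of MGJ2 limit every value by Col10a1 there.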

Other observations

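Ptgfr, the receptor for prostaglandin F2 alpha, was highest in basophil-like cells of MGJ2, with myeloid progenitor-like cells next at 3.28 CPM. There 99 Ptgfr UMIs were found in 35 of 76 cells, or 325 CPM (264 to 395), with at most 8 in a cell, against 29 UMIs in all other cells of the library together. The class also held Cyp11a1, the enzyme that starts steroid synthesis, at 2944 CPM in all 76 cells, Mcpt8, a basophil protease, at 3420 CPM and the leukotriene gene Alox5ap at 2020 CPM, while Hpgds was seen as 1 UMI. Mcpt8 was seen in 38 of the 76 cells. Most UMIs of Mcpt8 and Alox5ap lay outside the class, with 5284 against 1043 and 28017 against 616. For Cyp11a1 the other cells held 656 UMIs against 898 in the class. The class was singled out after its values were seen.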
